A study of Mus musculus with 10 samples.

Results

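The genes of the proteasome, the protease that degrades ubiquitin-tagged proteins, were followed in mouse testis with and without a knockout of *Rnf20* in Sertoli cells. Members were taken by their symbol, as every gene named Psma to Psmg with a number and, in some cases, a letter. At day 7, 48 of 17816 genes had such a symbol and 47 of them were among the 12880 genes tested. In adults, 49 of 20007 genes had one and 48 of them were among the 15919 genes tested. The constitutive particle is represented in both tables by 31 core genes. *Psma8*, which is used in germ cells, and *Psmb8*, *Psmb9* and *Psmb10*, which make the immunoproteasome, were set apart from them.

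RNF20 is the E3 ligase that places ubiquitin on histone H2B, and the question of the study was what its loss in Sertoli cells does to gene transcription and to spermatogenesis. At 7 days after birth, Sertoli cells of 2 control samples, *Rnf20* Flox/Flox mice that the labels call WT, were compared with those of 2 samples from *Amh-Rnf20*-/- mice, in which Cre under the *Amh* promoter removes the floxed exons. By the methods, the Sertoli cells were a passaged primary culture of attached testis cells, grown in medium with serum. The labels, however, give adult tissue as the growth condition of all samples, those of day 7 included. In adults, whole testis, most of whose cells are not Sertoli cells, of 3 samples labelled WT was compared with that of 3 samples labelled RNF20 conditional knockout. The methods describe groups of 3 individuals at day 7, of which 2 samples per group were analysed here. The exact adult age, the Cre status of the adult WT mice and whether the adult samples are separate animals are not given in the sources used here, and the p-values measure the spread between these samples. Polyadenylated RNA was sequenced.

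The 26S proteasome is a barrel, the 20S core, capped by the 19S regulator. The outer rings of the barrel are made of alpha subunits and the inner rings of beta subunits, of which PSMB5, PSMB6 and PSMB7 hold the active sites. PSMB8, PSMB9 and PSMB10 take their places in the immunoproteasome, which is abundant in immune cells and is induced elsewhere by interferon. The testis is known for a further form, in which PSMA8 takes the place of PSMA7 in spermatocytes and spermatids and the activator PSME4 caps the barrel while histones are removed from chromatin.

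Library totals lay between 17477268 and 17705347 estimated counts at day 7 and between 15431912 and 16574144 in adults. *Rnf20* was lower in both day 7 knockout samples, at 10.25 and 12.58 FPKM (fragments scaled by gene length and by the library total) against 16.64 and 16.01 in controls, with a log2 fold change of -0.49 that missed the threshold (adjusted p = 0.222). In adults *Rnf20* was at 4.89, 3.32 and 4.09 FPKM in WT and at 9.16, 5.76 and 9.85 FPKM in the labelled knockouts. Its log2 fold change was 0.12 (adjusted p = 0.688), 0.97 with total counts (adjusted p = 0.0168) and -0.08 with median-ratio scaling. The adult values thus show no lower *Rnf20* in whole testis. A knockout in Sertoli cells alone need not lower the total of whole testis, so these values cannot tell whether the label holds. The group is called the labelled knockout throughout. For adult *Amh-Rnf20*-/- testes the paper reports less RNF20 protein on Western blots and tubules without round or elongated spermatids. The paper also measured *Rnf20* RNA in adult testes by real-time PCR, without giving its direction in the text. Adult labelled knockout 1 stood apart from the other two of its group, as a distance over all genes (chi-square per degree of freedom of 97.6 and 131, against 23.6 between samples 2 and 3). At day 7 the 2 knockout samples were also further from each other (38.4) than the 2 controls (2.82). TMM scaling factors of edgeR ran from 0.710 to 0.761 in adult WT and from 1.27 to 1.42 in the labelled knockouts. Scaling by library totals alone therefore raised every adult log2 fold change, moving the median of all genes from 0.01 to 0.87, and the fold changes are to be read against that shift. FPKM values follow library totals and do not carry the TMM factors.

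In day 7 Sertoli cells the proteasome genes differed little between genotypes. Each of the 31 core genes was abundant, with a median of 166 and 162 FPKM in the controls and of 149 and 172 FPKM in the knockouts. Their log2 fold changes ran from -0.31 for *Psmd8* to 0.14 for *Psma3*, with a median of 0.01. No member passed edgeR's quasi-likelihood test at an adjusted p under 0.05, and no gene of the whole table did (0%). At an unadjusted p under 0.05 were 2 of 47 members, *Psmb10* and *Psmc6*, against 15.5% of all genes tested, and DESeq2 called 0 members while it called 4.51% of all genes. TMM-scaled values of the groups did not overlap for 18 of 47 members, while 51% of all genes tested did not overlap. Of the members, 11 were higher (24.8% of all genes) and 7 lower (26.1%). The difference between these shares was not tested.

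Among the day 7 core genes, *Psmd8*, a non-ATPase subunit of the 19S lid, had the lowest estimate. It was at 264.86 and 291.85 FPKM in the controls and at 167.84 and 270.92 FPKM in the knockouts, a log2 fold change of -0.31 ± 0.24 (SE; adjusted p = 0.587). The groups overlapped and the difference came from knockout sample 1. *Psmc6*, an ATPase of the 19S base, was at 132.03 and 123.19 FPKM in the controls and at 101.87 and 108.46 FPKM in the knockouts (log2 fold change -0.24 ± 0.08, adjusted p = 0.305). *Psmd4*, a ubiquitin receptor, was at 205.23 and 203.43 FPKM against 151.16 and 195.82 FPKM (log2 fold change -0.20, adjusted p = 0.544). Both genes had lower values in each knockout sample, and neither passed the test. Without knockout sample 1 the log2 fold change was -0.03 for *Psmd4* and -0.20 for *Psmc6*. The largest positive estimates among the core genes were those of *Psma3*, an alpha subunit (0.14), *Psmb4*, a beta subunit (0.09), and *Psmc2*, a 19S ATPase (0.09), with adjusted p between 0.438 and 0.640. Of the assembly chaperones, *Psmg3*, which helps to build the alpha ring, had a log2 fold change of 0.20, *Psmd9* of 0.13, *Psmd10* of -0.15 and *Psmd5* of -0.12. The last 3 of these escort ATPases of the 19S base. The estimates of the 4 activators tested and of the inhibitor *Psmf1* lay between -0.05 and 0.18.

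The immunoproteasome genes were low in the day 7 cells and 1 knockout sample carried most of the difference of *Psmb8* and *Psmb9*. *Psmb8*, which takes the place of *Psmb5*, was at 2.52 and 3.86 FPKM in the controls and at 8.59 and 3.06 FPKM in the knockouts (log2 fold change 0.91 ± 0.57, adjusted p = 0.507). *Psmb9*, which takes the place of *Psmb6*, was at 1.26 and 1.43 FPKM against 3.02 and 0.78 FPKM (0.53 ± 0.69, adjusted p = 0.757). Knockout sample 1 was the highest for both genes and knockout sample 2 lay within or below the controls. *Psmb10*, which takes the place of *Psmb7*, was the most abundant of the 3, at 16.12 and 18.39 FPKM in the controls and at 23.31 and 20.33 FPKM in the knockouts (0.38 ± 0.14, adjusted p = 0.317). Its groups did not overlap. Without knockout sample 1 the log2 fold change was -0.03 for *Psmb8*, -0.72 for *Psmb9* and 0.27 for *Psmb10*. In that sample the summed FPKM of 8 macrophage markers was also highest, at 27.18 against 13.45 to 15.63 in the other day 7 samples. Sums of Leydig (301 against 149 to 205), endothelial (46.1 against 30.5 to 34.0) and stromal fibroblast markers (3234 against 1835 to 2785) were highest there too. So was that of antigen presentation genes (1075 against 733 to 922). Those of peritubular myoid and lymphocyte markers were highest in knockout sample 2. The part of these genes in the result was not tested.

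Leaving out a day 7 knockout sample changed the count of calls. Without sample 1, 8 of 47 members passed the test, 7 higher (11.3% of all genes) and 1 lower (12.8%), while 24% of all genes tested passed. Without sample 2, 11 members passed, 3 higher (21.5%) and 8 lower (19.1%), while 40.6% of all genes tested passed. With 1 knockout sample left, that sample is assumed to vary like the controls, which were close to each other. The day 7 samples also differed in markers of other cells. Sertoli markers summed to 1484 and 1363 FPKM in the controls and to 845 and 1128 FPKM in the knockouts. Of these 10 markers, 7 had lower TMM-scaled values in both knockout samples and 1 had higher values in both. Of all genes tested, 26.1% were lower and 24.8% higher in this way. All 6 stromal fibroblast and all 6 peritubular myoid markers had higher values in both knockout samples. Spermatogonium and spermatocyte markers were lower. Of 10 spermatogonium markers 9 did not overlap (summed FPKM of 213 and 207 in controls and of 147 and 144 in knockouts), nor did all 7 spermatocyte markers tested. The 1 spermatid marker tested overlapped, with a log2 fold change of 0.10. The part of all these markers in the proteasome values was not tested.

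**Figure D1:**
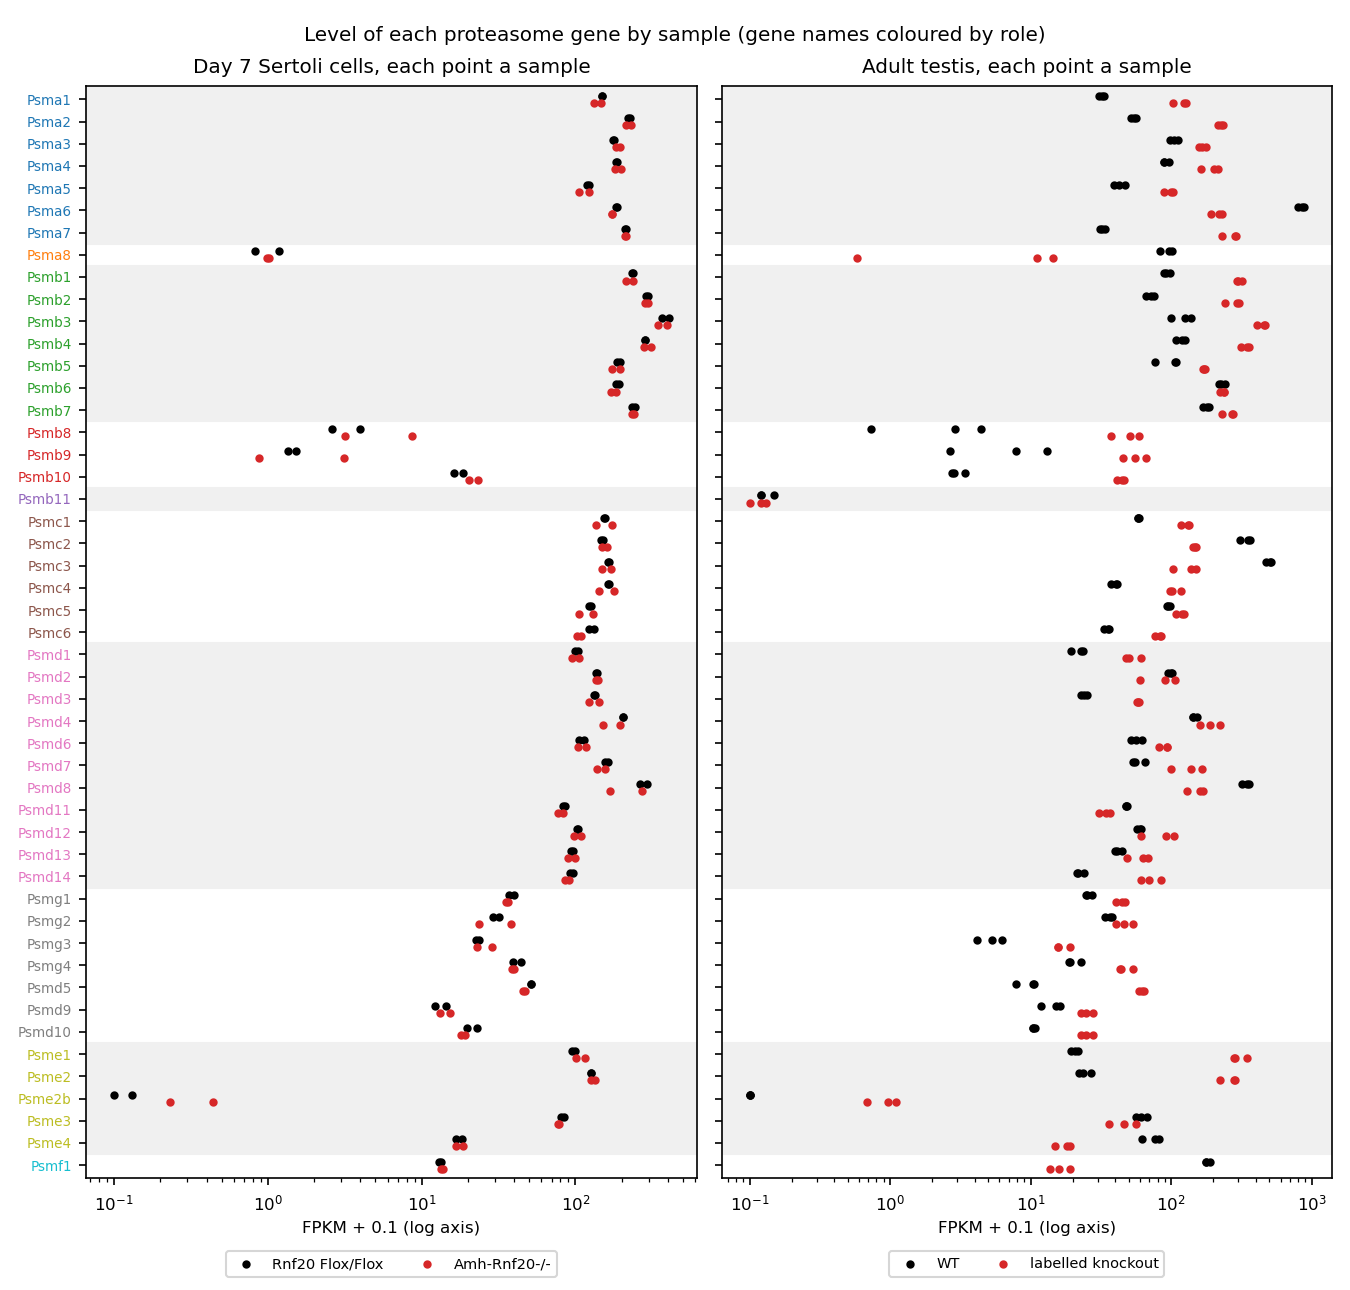
FPKM plus 0.1 of each proteasome gene (log axis, 1 point per sample) in day 7 Sertoli cells (left) and adult testis (right), for controls (black) and *Amh-Rnf20*-/- or labelled knockout samples (red). The groups lie close together at day 7, and in adults *Psma6*, *Psmc3*, *Psmc2*, *Psmd8*, *Psma8*, *Psme4* and *Psmf1* are higher in WT while *Psma7*, *Psmb8*, *Psmb9*, *Psmb10*, *Psme1* and *Psme2* are higher in the labelled knockouts.

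In adult testis the proteasome genes differed widely and in both directions. The germ cell subunit *Psma8*, the inhibitor *Psmf1*, the activator *Psme4* and 4 core genes, *Psma6*, *Psmc3*, *Psmc2* and *Psmd8*, fell in the labelled knockouts. The immunoproteasome genes, the activators *Psme1* and *Psme2* and *Psma7* rose. In all, 37 of 48 members passed edgeR's test at an adjusted p under 0.05, against 81.5% of all genes tested. Of these, 22 were higher (40.9% of all genes) and 15 lower (40.6% of all genes). TMM-scaled values did not overlap for 40 of 48 members, against 85.5% of all genes, with 23 higher (42.4% of all genes) and 17 lower (43.1%). By these measures the share of proteasome genes that changed was near the background. For its day 7 cells the study used stricter limits, a log2 fold change beyond 1 in size with an adjusted p under 0.001. At these limits 16 of 48 adult members passed against 46.7% of all genes, 8 higher (23%) and 8 lower (23.7%).

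The split by direction depended on scaling. When libraries were scaled by their totals, 42 members were called (84.1% of all genes), of which 34 rose (54.1%) and 8 fell (30%). Median-ratio scaling called 34 members (81.1% of all genes), of which 16 rose (37.6%) and 18 fell (43.5%), with the median of all genes at -0.19. Called in the same direction under TMM, total counts, median-ratio scaling, DESeq2 and limma were 16 members that rose and 7 that fell. Each of these fits, with limma at a pseudocount of 0.1, called between 81.1% and 84.2% of all genes. The share of all genes called in every one of them was not computed, so these counts are a description of the members. The 16 were *Psma1*, *Psma2*, *Psma7*, *Psmb1* to *Psmb4*, *Psmb8* to *Psmb10*, *Psmc4*, *Psmd14*, *Psmd5*, *Psme1*, *Psme2* and *Psme2b*. The 7 were *Psma6*, *Psma8*, *Psmc2*, *Psmc3*, *Psmd8*, *Psme4* and *Psmf1*. These 7 and 13 of the 16 also passed without each sample in turn. *Psmb9* and *Psmc4* failed without WT 3, and *Psme2b* was not tested when a labelled knockout was left out. The fits without a sample called between 73.6% and 86.2% of all genes, and the share called in every one of them was not computed.

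**Figure D2:**
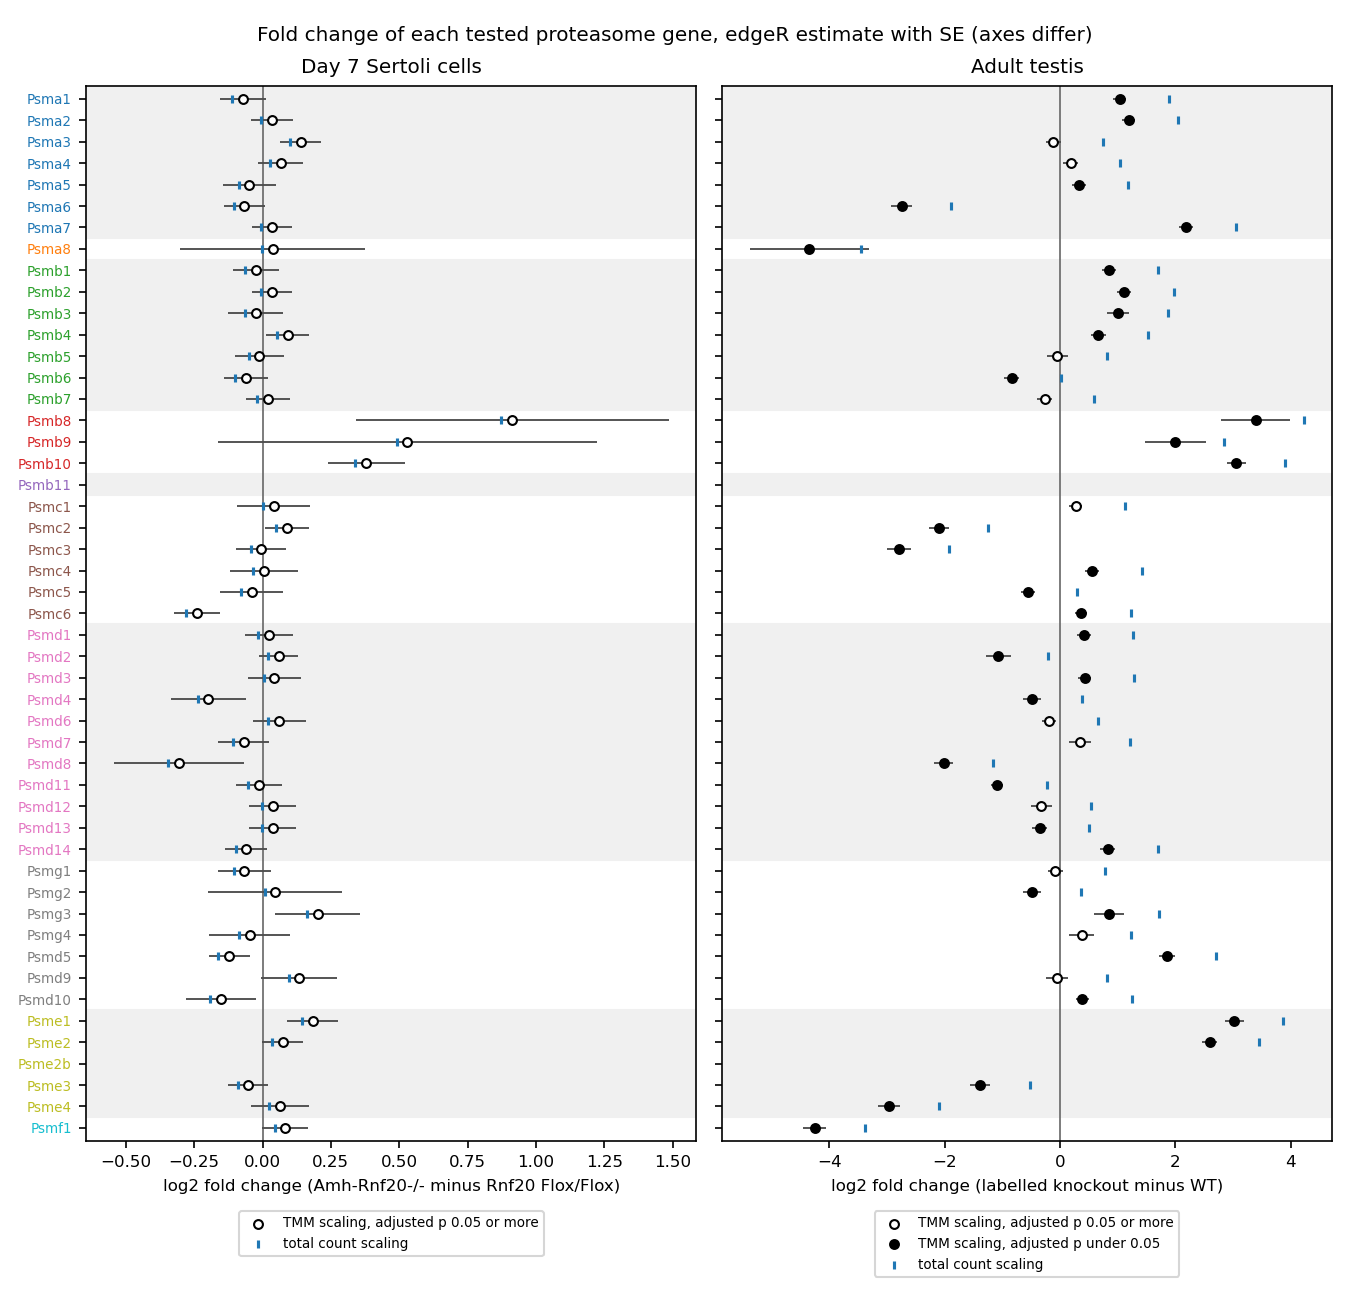
Log2 fold change of each tested proteasome gene with its SE from edgeR (circles, filled at an adjusted p under 0.05) and with total count scaling (blue ticks), for day 7 (left) and adult (right) on different axes. No circle is filled at day 7; in adults the estimates run from -4.34 for *Psma8* to 3.39 for *Psmb8*, and *Psme2b* is left out because its WT libraries hold no counts.

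*Psma8*, the alpha subunit of germ cells, had the lowest estimate among the members with all samples, whereas without labelled knockout 1 that of the inhibitor *Psmf1* was lower (-3.80 against -3.41). It was at 83.83, 96.27 and 101.72 FPKM in WT and at 0.48, 11.01 and 14.38 FPKM in the labelled knockouts, which is 93.9 ± 9.17 against 8.62 ± 7.25 FPKM (SD, n = 3). The groups lay far apart, and labelled knockout 1 held only 11 counts. The log2 fold change was -4.34 ± 1.03 (SE; adjusted p = 0.00796), and -3.41 without labelled knockout 1 (adjusted p = 1.38e-07). In the day 7 cells *Psma8* was near the low end, at 0.72 and 1.09 FPKM in controls and at 0.89 and 0.92 FPKM in knockouts.

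*Psma7*, the alpha subunit whose place PSMA8 takes, moved the other way. It was at 33.58, 32.03 and 31.21 FPKM in WT and at 228.49, 288.95 and 286.79 FPKM in the labelled knockouts (log2 fold change 2.18 ± 0.13, adjusted p = 3.8e-05). In WT it was among the lower core genes, in contrast to the day 7 cells, where it was at 210.62 to 214.29 FPKM in all 4 samples. Within the pair, *Psma8* made up 71.40%, 75.04% and 76.52% of the summed FPKM in WT and 0.210%, 3.67% and 4.77% in the labelled knockouts. This share is a ratio inside a library and does not depend on scaling between libraries. The difference of the means was -71.4 percentage points, with an exact two-sided permutation p of 0.1, the smallest that 3 samples against 3 can give. At day 7 the share was under 0.51% in each sample.

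These values moved with germ cell markers. All 12 spermatid markers fell, and their summed FPKM was between 125652 and 194368 in WT and between 4.34 and 107.83 in the labelled knockouts. All 12 spermatocyte markers were lower without overlap and 8 passed the test (5 with total counts and 12 without labelled knockout 1), with a summed FPKM of 865.72 to 920.79 against 4.76 to 287.20, the lowest being labelled knockout 1. Spermatogonium markers were mixed, with 2 of 9 tested higher and 4 lower, and summed to 296, 265 and 293 FPKM in WT and to 48.3, 305 and 444 FPKM in the labelled knockouts. None of the markers was at 0 in every library. In whole tissue, fewer cells of a type and less RNA per cell cannot be told apart, and the part of the markers in the proteasome values was not tested.

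**Figure D3:**
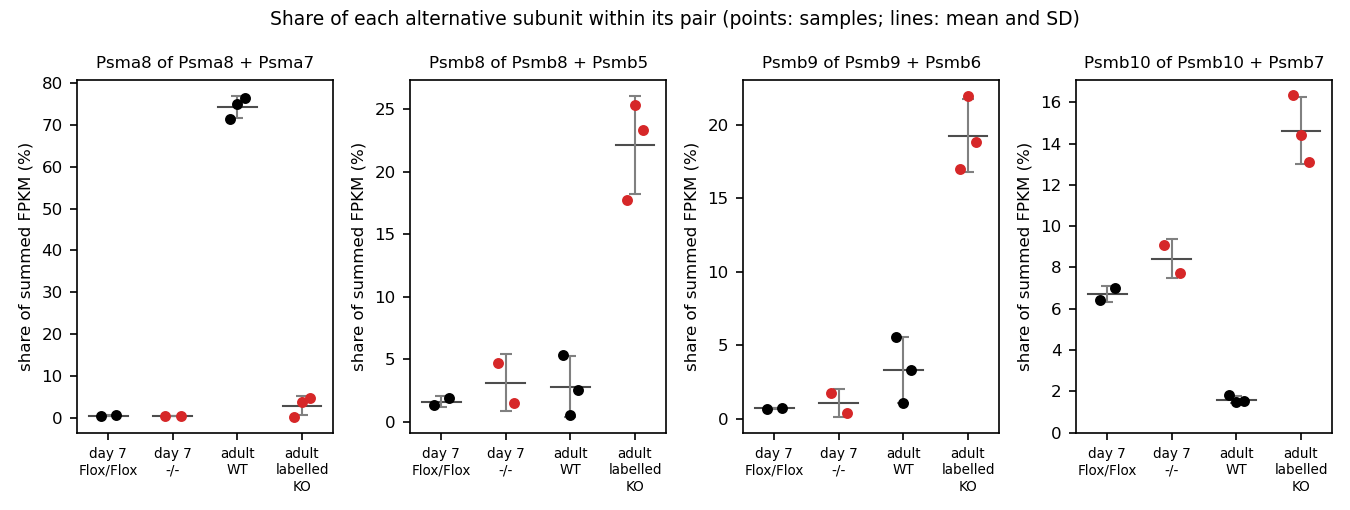
Share (%) of *Psma8*, *Psmb8*, *Psmb9* and *Psmb10* in the FPKM summed with the partner gene, for each sample (points) of the 4 groups, with mean and SD (lines). In adults the *Psma8* share is 71.4% to 76.5% in WT and at most 4.77% in the labelled knockouts, and the 3 immunoproteasome shares are 13.1% or more in the labelled knockouts and at most 5.54% in WT.

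The 3 immunoproteasome genes rose in adult labelled knockouts. *Psmb8* was at 4.37, 0.63 and 2.79 FPKM in WT and at 36.95, 59.37 and 51.03 FPKM in the labelled knockouts (log2 fold change 3.39 ± 0.59, adjusted p = 0.00211). *Psmb9* was at 12.93, 2.56 and 7.79 FPKM against 45.61, 66.59 and 55.43 FPKM (2.0 ± 0.53, adjusted p = 0.0122). Neither gene's groups overlapped, although WT samples differed among themselves and WT 2 was lowest for both. The call of *Psmb9* was lost without WT 3 (log2 fold change 1.90, adjusted p = 0.0541). *Psmb10* was steadier, at 3.33, 2.77 and 2.66 FPKM against 44.74, 45.99 and 41.41 FPKM (3.06 ± 0.16, adjusted p = 3.35e-05).

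The constitutive partners of these genes did not rise in the same way. *Psmb5*, the chymotrypsin-like site, was at 77.06, 107.64 and 106.55 FPKM in WT and at 170.97, 175.07 and 167.85 FPKM in the labelled knockouts, a TMM log2 fold change of -0.04 (adjusted p = 0.825) that became 0.82 with total counts. *Psmb6*, the caspase-like site, was at 220.31, 240.46 and 226.53 FPKM against 222.88, 236.81 and 238.57 FPKM, a log2 fold change of -0.84 (adjusted p = 0.00153) that became 0.02 with total counts (adjusted p = 0.892). *Psmb7*, the trypsin-like site, was at 181.25, 186.10 and 169.73 FPKM against 229.18, 273.02 and 274.46 FPKM, a log2 fold change of -0.27 (adjusted p = 0.103) that became 0.60 with total counts. The direction of all 3 partners thus depended on scaling. The call of *Psmb6* was also lost without labelled knockout 3 (log2 fold change -0.49, adjusted p = 0.0518).

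Shares within pairs avoid that dependence. *Psmb8* made up 5.37%, 0.582% and 2.55% of its pair with *Psmb5* in WT and 17.8%, 25.3% and 23.3% in the labelled knockouts. *Psmb9* made up 5.54%, 1.05% and 3.32% of its pair with *Psmb6* against 17.0%, 21.9% and 18.9%. *Psmb10* made up 1.80%, 1.47% and 1.54% of its pair with *Psmb7* against 16.3%, 14.4% and 13.1%. The ranges did not overlap for any pair, and each exact two-sided permutation p was 0.1, the smallest possible. In the day 7 cells the *Psmb8* share was 1.34% and 1.93% in controls and 4.74% and 1.54% in knockouts, and the *Psmb9* share was 0.678% and 0.735% against 1.75% and 0.423%. The *Psmb10* share was 6.43% and 7.00% against 9.10% and 7.76%, with an exact permutation p of 0.33, the smallest that 2 samples against 2 can give. The groups overlapped for the other 3 shares at day 7.

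Immune cell and antigen presentation genes, and markers of some other somatic cells, moved with the immunoproteasome in adults. All 8 macrophage markers rose, with a summed FPKM of 57.15 to 66.65 in WT and of 1180.50 to 1602.07 in the labelled knockouts. Of 7 lymphocyte markers tested 6 rose, with a summed FPKM of 2.39 to 3.62 against 22.17 to 39.89, and without labelled knockout 1 only 1 passed. Of 10 genes of antigen presentation and its control by interferon, 8 rose (40.9% of all genes) and none fell, with a median log2 fold change of 2.59 against 0.01 for all genes tested. *Nlrc5*, at 1.64 FPKM or less in every adult sample, had an edgeR estimate of -0.78 (adjusted p = 0.0795), and of 0.07 with total counts. *B2m*, the light chain of class I molecules, rose by 3.41 on the log2 scale and *Irf1*, a transcription factor of the interferon response, by 3.80, while *Tap1*, the transporter gene next to *Psmb9*, was at 10.06, 0.59 and 6.38 FPKM in WT and at 10.37, 15.33 and 13.20 FPKM in the labelled knockouts (adjusted p = 0.691). Markers of some other somatic cells rose too. All 6 Leydig cell markers did, with a median log2 fold change of 3.92 against 3.74 for the macrophage markers, as did all 6 stromal fibroblast markers (4.40) and 4 of 5 endothelial markers (3.19, and 3 of 5 without labelled knockout 1). The lists of Sertoli and peritubular myoid cells were mixed. Of 10 Sertoli markers 4 rose and 1 fell (9 and 1 without labelled knockout 1), with a summed FPKM of 523 to 649 in WT and of 1976 to 5439 in the labelled knockouts. Of 6 peritubular myoid markers 4 rose and 1 fell, with a summed FPKM of 293 to 366 against 191 to 395. The part of these cells and genes in the immunoproteasome values was not tested.

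Promoter sequence was examined for these inducible members, since interferon acts through the ISRE (searched as GAAA, any 2 bases and GAAA again) and the GAS element (TTCNNNGAA), where N is any base, both strands were read and overlaps were allowed. The windows reach from 250 bases before to 50 bases after the start site and come from RefSeq on GRCm38.p6. They were found for 41 members, with 44 windows. The promoters of *Psmb8*, *Psmb9*, *Psmb10* and *Psme1*, a partner activator described further on, are printed 5′ to 3′ with matches in capitals.
Psmb8, chr17:34197945-34198244, plus strand: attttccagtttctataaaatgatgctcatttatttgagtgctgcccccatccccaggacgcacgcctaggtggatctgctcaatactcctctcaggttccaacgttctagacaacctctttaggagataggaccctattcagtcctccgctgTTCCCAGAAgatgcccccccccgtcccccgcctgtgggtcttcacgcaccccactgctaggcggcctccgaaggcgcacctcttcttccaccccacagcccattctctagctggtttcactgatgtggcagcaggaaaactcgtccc
Psmb9, chr17:34187281-34187580, minus strand: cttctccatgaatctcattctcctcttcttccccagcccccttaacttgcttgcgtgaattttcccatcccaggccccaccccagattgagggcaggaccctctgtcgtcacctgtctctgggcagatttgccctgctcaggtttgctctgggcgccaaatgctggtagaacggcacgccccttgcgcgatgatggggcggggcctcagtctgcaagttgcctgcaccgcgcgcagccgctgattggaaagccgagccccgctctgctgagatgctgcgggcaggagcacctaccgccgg
Psmb10, chr8:105938343-105938642, minus strand: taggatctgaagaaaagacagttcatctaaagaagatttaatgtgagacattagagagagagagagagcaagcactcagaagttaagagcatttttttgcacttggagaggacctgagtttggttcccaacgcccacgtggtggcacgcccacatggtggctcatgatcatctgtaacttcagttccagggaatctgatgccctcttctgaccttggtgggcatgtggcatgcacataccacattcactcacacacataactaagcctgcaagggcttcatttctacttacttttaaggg
Psme1, chr14:55578244-55578543, plus strand: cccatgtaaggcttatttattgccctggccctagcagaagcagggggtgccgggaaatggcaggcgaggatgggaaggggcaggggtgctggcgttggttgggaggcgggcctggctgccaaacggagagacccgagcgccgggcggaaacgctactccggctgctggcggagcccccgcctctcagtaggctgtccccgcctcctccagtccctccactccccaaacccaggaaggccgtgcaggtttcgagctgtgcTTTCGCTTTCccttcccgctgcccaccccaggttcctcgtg
The capitals mark a GAS match in *Psmb8* that starts 97 bases before the start site and an ISRE match in *Psme1* that starts at base 10 of the transcript. *Psmb9* and *Psmb10* hold neither set of letters in these windows, nor do the 2 windows of *Psme2*, which are not printed. Of all 32851 promoter windows, 3.44% held the ISRE and 8.3% the GAS letters. Among the member windows 5 held the ISRE letters (*Psmb3*, *Psmd4*, *Psmd9*, *Psme1* and *Psmg4*) and 3 the GAS letters (*Psmb8*, *Psmd2* and *Psmg1*). The element bound by NFE2L1 and NFE2L2 (TGACNNNGC) was in 6 of 44 member windows, *Psmb5*, *Psmb6*, *Psmc6*, *Psmd12*, *Psmd9* and *Psme4*, against 12.4% of all. A match is a description of letters and not of binding.

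*Psmb11*, the beta subunit of the thymus, was at 0.05 FPKM or less in every adult sample, with counts at or under the floor of 3 per library, so no fold was computed.

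Among the 7 alpha and 7 beta core genes of adult testis, 8 rose, 2 fell and 4 did not pass the test, against 40.9% of all genes higher and 40.6% lower. With total counts 12 rose and 1 fell, against 54.1% and 30% of all genes. Of the alpha subunits, *Psma2* was at 54.42, 56.38 and 51.65 FPKM in WT and at 213.76, 233.33 and 226.73 FPKM in the labelled knockouts (log2 fold change 1.19 ± 0.11, adjusted p = 0.000169). *Psma1* was at 31.84, 30.66 and 32.94 FPKM against 102.87, 124.33 and 128.23 FPKM (1.03 ± 0.11, adjusted p = 0.000244). Neither gene had overlapping groups.

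*Psma6*, an alpha subunit of the same ring, went the other way. It was the most abundant core gene in WT, at 850.89, 885.49 and 803.43 FPKM, and was at 193.46, 218.12 and 228.13 FPKM in the labelled knockouts (-2.74 ± 0.18, adjusted p = 4.97e-05). Of the beta subunits, *Psmb2* was at 75.98, 72.14 and 66.30 FPKM in WT and at 241.47, 296.29 and 303.92 FPKM in the labelled knockouts (1.11 ± 0.13, adjusted p = 0.000336). *Psmb3* was at 124.95, 139.05 and 98.87 FPKM against 461.64, 456.35 and 410.83 FPKM (1.01 ± 0.19, adjusted p = 0.00265), and *Psmb1* and *Psmb4* rose as well. *Psmb6* was the only core beta subunit that fell with TMM. With median-ratio scaling and DESeq2, *Psmb7* fell as well (-0.47 in both, adjusted p = 0.0162 and 0.000383), and neither gene fell with total counts or limma.

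Among the 17 subunits of the 19S regulator, 5 rose and 8 fell with TMM (40.9% and 40.6% of all genes). With total counts 9 rose and 3 fell (54.1% and 30%). With TMM but without labelled knockout 1, 8 rose and 5 fell, while 86.2% of all genes passed in either direction. The balance of these subunits thus turned both with scaling and with that sample, and its difference from all genes was not tested. The median log2 fold change of the 17 was -0.33 with TMM, 0.54 with total counts and 0.22 without labelled knockout 1. *Psmc3*, an ATPase of the base that unfolds substrates, was at 502.15, 510.78 and 476.32 FPKM in WT and at 103.60, 138.33 and 150.88 FPKM in the labelled knockouts (-2.79 ± 0.21, adjusted p = 7.27e-05). *Psmc2*, another ATPase of the same ring, was at 306.73, 353.82 and 362.16 FPKM against 142.86, 149.44 and 148.06 FPKM (-2.10 ± 0.17, adjusted p = 9.86e-05). Other ATPases of the ring behaved differently, since *Psmc4* and *Psmc6* rose by 0.55 and 0.36 on the log2 scale and *Psmc5* had a log2 fold change of -0.56. The direction of *Psmc5* turned to 0.30 with total counts (adjusted p = 0.0563) and with limma (adjusted p = 0.0287), and its call was lost without any one of the labelled knockouts (adjusted p of up to 0.153). The call of *Psmc6* was lost with median-ratio scaling (adjusted p = 0.187) and DESeq2 and without any one of the WT samples. That of *Psmc4* was lost without WT 3 (adjusted p = 0.051).

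Of the non-ATPase subunits, *Psmd8* was at 356.73, 321.51 and 345.06 FPKM in WT and at 129.86, 160.19 and 169.60 FPKM in the labelled knockouts (-2.02 ± 0.17, adjusted p = 0.000101). *Psmd11* was at 47.93, 48.77 and 47.48 FPKM against 30.62, 34.15 and 36.64 FPKM (-1.09 ± 0.11, adjusted p = 0.000174), a call that was lost with total counts (adjusted p = 0.108). Both are subunits of the lid. *Psmd14*, the deubiquitinase of the lid, rose by 0.83 on the log2 scale (adjusted p = 0.00118). Its values of 21.65, 21.26 and 23.92 FPKM in WT and 61.26, 69.95 and 84.82 FPKM in the labelled knockouts did not overlap. *Psmd4* and *Psmd13*, with log2 fold changes of -0.48 and -0.35 under TMM, turned to 0.38 (adjusted p = 0.072) and 0.51 (adjusted p = 0.0248) with total counts, and limma called both higher (adjusted p = 0.0497 and 0.0242). Both calls were also lost without labelled knockout 1 (adjusted p = 0.882 and 0.259), 2 (0.287 and 0.386) or 3 (0.309 and 0.730), and that of *Psmd13* without WT 2 or WT 3.

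The composition of the core gene set differed between the adult groups. The 4 core genes with the largest falls, *Psma6*, *Psmc3*, *Psmc2* and *Psmd8*, made up 49.4%, 49.4% and 49.5% of the summed FPKM of all 31 core genes in WT and 12.4%, 12.8% and 13.0% in the labelled knockouts. They were chosen from this comparison, so these shares are a description. In day 7 cells they made up 12.9% to 14.3%. In WT testis the FPKM of the highest core gene was 39.3, 45.7 and 34.2 times that of the lowest. That ratio was 15.1, 13.4 and 11.2 in the labelled knockouts and 4.45 to 4.77 at day 7.

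The spread of the core genes within a sample, as the SD of log2 FPKM over 31 genes, was 1.31, 1.35 and 1.30 in adult WT and 0.918, 0.891 and 0.843 in the labelled knockouts. This measure was chosen after values had been seen, and its exact two-sided permutation p was 0.1, the smallest possible. With the interquartile range in its place the difference was -0.233 and the exact permutation p was 0.2. At day 7 the SD was 0.525 and 0.556 in controls and 0.540 and 0.547 in knockouts (exact permutation p = 1). Across the 31 core genes, mean log2 levels in day 7 controls correlated with those in adult WT at r = 0.46 and with those in the adult labelled knockouts at r = 0.92. Adult WT and labelled knockouts correlated at r = 0.49. These correlations are across genes, which share gene length and counting in all samples, and the 2 tables were normalized separately.

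**Figure D4:**
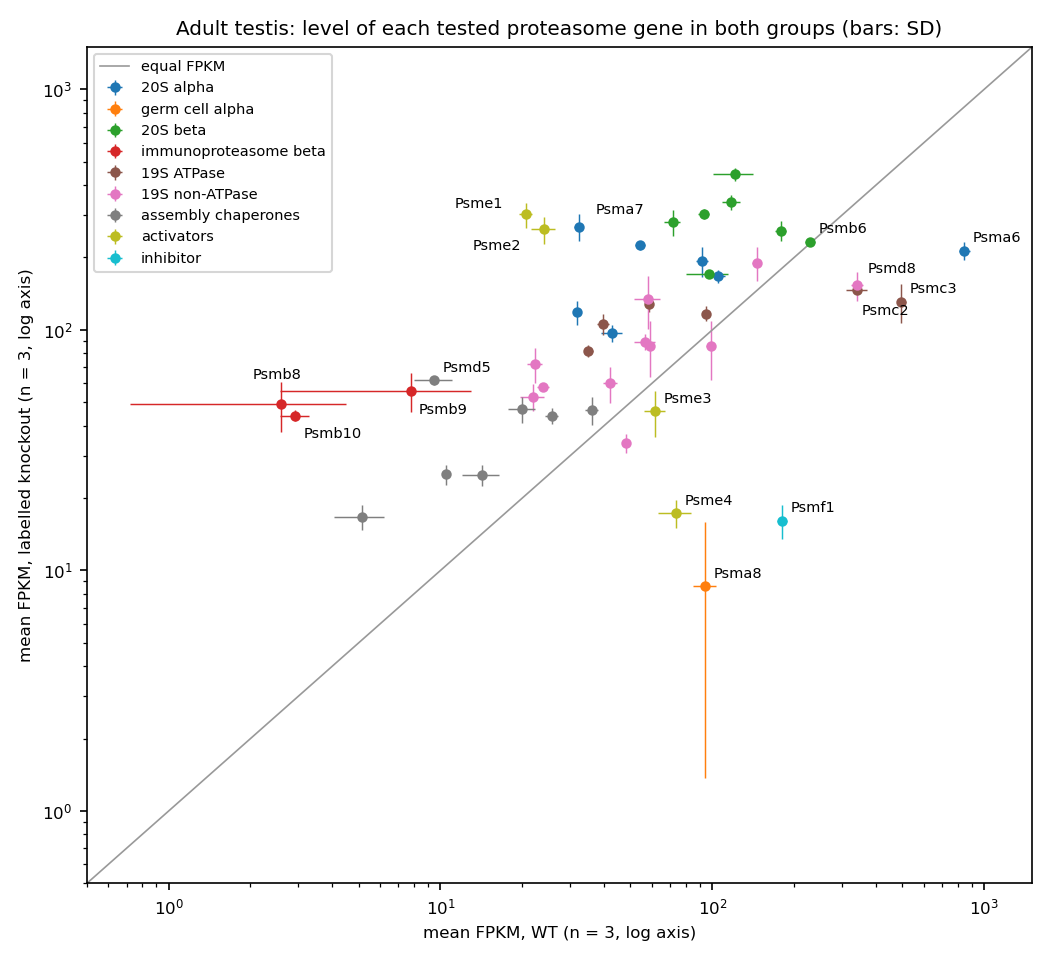
Mean FPKM of each tested proteasome gene in adult WT (horizontal, log axis) and in the labelled knockouts (vertical, log axis), with SD over 3 samples and colour by role; *Psme2b*, listed at 0 in WT, is left out. The immunoproteasome genes, *Psme1*, *Psme2*, *Psma7* and *Psmd5* lie furthest above the line of equal FPKM, and *Psma8*, *Psmf1*, *Psme4*, *Psma6* and *Psmc3* furthest below it.

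Of the 7 assembly chaperones, 3 rose, 1 fell and 3 did not pass the test with TMM (40.9% of all genes rose and 40.6% fell), while all 7 rose with total counts (54.1% of all genes). *Psmd5*, which escorts ATPases of the base, had the largest rise, from 10.32, 7.73 and 10.44 FPKM in WT to 61.48, 64.42 and 59.42 FPKM in the labelled knockouts (1.86 ± 0.14, adjusted p = 7.77e-05). The groups did not overlap and the call held under each scaling and without each sample. *Psmd9* and *Psmg1*, chaperones of the base and of the alpha ring, had estimates of -0.05 and -0.08, which became 0.81 and 0.77 with total counts (adjusted p = 0.00369 and 0.00137). *Psmg2*, the partner of PSMG1, fell by 0.49 on the log2 scale with TMM and was 0.37 higher with total counts, passing the test in both directions. Its TMM call was lost without WT 2 or any one of the labelled knockouts.

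The activators separated into 2 pairs. *Psme1* and *Psme2* encode the subunits of PA28 alpha-beta, which is induced by interferon and binds the immunoproteasome. *Psme1* was at 19.42, 20.70 and 21.63 FPKM in WT and at 343.80, 277.71 and 285.75 FPKM in the labelled knockouts (3.02 ± 0.17, adjusted p = 3.59e-05). *Psme2* was at 26.67, 21.92 and 23.35 FPKM against 222.77, 284.21 and 278.06 FPKM (2.60 ± 0.13, adjusted p = 3.18e-05). The 2 genes lie within a few kilobases of each other on chromosome 14, *Psme1* at chr14:55578494-55581527 and *Psme2* at chr14:55587440-55591101 (GRCm38.p6). The levels in the day 7 cells, where *Psme1* was at 95.39 to 114.85 FPKM and *Psme2* at 125.69 to 133.17 FPKM, did not show this difference. *Psme2b*, a near-identical copy of *Psme2*, had 0 counts in each adult WT library and 12.94, 11.20 and 7.45 estimated counts in the labelled knockouts. Against a floor of 3 counts per library it was at least 1.93-fold higher, but reads of *Psme2* could have been split to it and the value is uncertain.

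*Psme3* encodes PA28 gamma, the nuclear activator, and *Psme4* encodes PA200. *Psme3* was at 67.02, 61.07 and 56.38 FPKM in WT and at 35.82, 46.27 and 55.67 FPKM in the labelled knockouts (-1.39 ± 0.18, adjusted p = 0.000526), and limma on log2 FPKM gave -0.44 (adjusted p = 0.0659). *Psme4* was at 81.64, 61.93 and 76.91 FPKM against 14.72, 18.07 and 19.11 FPKM (-2.96 ± 0.19, adjusted p = 4.74e-05). The FPKM ranges of *Psme3* nearly touched, and those of *Psme4* lay far apart. At day 7 *Psme4* was at 18.20 and 16.54 FPKM in controls and at 18.62 and 16.72 FPKM in knockouts.

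*Psmf1*, which encodes the proteasome inhibitor PI31, was at 175.61, 189.82 and 177.93 FPKM in WT and at 13.71, 15.79 and 18.82 FPKM in the labelled knockouts. The log2 fold change was -4.25 ± 0.20 (adjusted p = 2.79e-05), and -3.38 with total counts. In the day 7 cells *Psmf1* was at 12.89 to 13.64 FPKM in all 4 samples. The gene overlaps *Tmem74b* and *Psme4* overlaps *Erlec1* in RefSeq, and the handling of strand is not given in the sources used here, so reads from the shared bases cannot be told apart.

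Outside the named family, 22 further genes of the pathway were listed. None passed the test at day 7. In adults 10 were higher (40.9% of all genes) and 11 lower (40.6%), with a median log2 fold change of -0.45 against 0.01 for all genes tested. With total counts 11 were higher (54.1%) and 5 lower (30%) with a median of 0.40 against 0.87 for all genes, and without labelled knockout 1 the median was -0.05, so its sign depended on scaling. *Nfe2l1* and *Nfe2l2*, transcription factors of proteasome genes, rose. *Nfe2l1* was at 9.71, 8.09 and 8.88 FPKM in WT and at 69.52, 72.78 and 70.89 FPKM in the labelled knockouts (2.13 ± 0.13, adjusted p = 4.3e-05). *Ubqln2*, a shuttle that brings ubiquitinated proteins to the proteasome, was at 2.63, 2.58 and 2.78 FPKM against 21.64, 29.70 and 30.57 FPKM (2.49 ± 0.14). The shuttle *Rad23b* had a log2 fold change of -2.02, so these shuttles differed in direction.

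Among genes that act directly on the particle, *Pomp*, the maturation factor of the 20S core, rose by 0.78 on the log2 scale and *Uchl5*, a deubiquitinase bound to the 19S regulator, fell by 1.96. *Akirin2*, a factor for nuclear import of proteasomes, was at 107.39, 102.48 and 104.70 FPKM in WT and at 21.00, 33.65 and 34.50 FPKM in the labelled knockouts (-2.60 ± 0.20). The ubiquitin gene *Ubb* was at 6665.53, 6930.47 and 6305.97 FPKM against 2074.45, 3078.55 and 3457.26 FPKM (-1.97 ± 0.33, adjusted p = 0.0017). *Uba1*, the ubiquitin-activating enzyme, rose by 1.25. None of these groups overlapped in FPKM.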

How the data were processed

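RNA-seq values of 4 day 7 Sertoli cell samples and 6 adult testis samples were analysed as 2 tables, each on its own, and samples were grouped by their labels. For day 7, the authors used HISAT against GRCm38.p6 and Bowtie2 against reference genes, and FPKM came from RSEM. Versions, strand handling and the adult counting step are not given in the sources used here. Several kinds of value were deposited for each sample, unnormalized estimated counts, FPKM scaled by gene length and library total, and TPM, which was not used. Another 20 columns of the adult table hold no value, and 0 columns of other samples were used.

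Estimated counts were rounded and tested with edgeR's quasi-likelihood test (edgeR 4.0.16, R 4.3.3, TMM), over genes that reached 0.5 FPKM in a number of samples equal to the group size, with Benjamini-Hochberg adjustment over all of them and a threshold of 0.05. Groups were knockout minus WT throughout. Shares of alternative subunits and levels relative to the core median, as log2(FPKM + 0.1), were compared by exact two-sided permutation tests. Alternatives were total counts, median-ratio scaling, DESeq2 1.42.0, limma 3.58.1 on log2 FPKM with a pseudocount of 0.1 or 1, no filter, a filter at a mean FPKM of 1, a replicate block and leaving out each sample. The scripts were tested on simulated data.

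Named were the alternative subunits with their partners, the activators, the inhibitor, *Rnf20* and, of the other tested members in each table, the 5 that rose most and the 5 that fell most by estimate. Other members were named where a group of genes or a call was described. The members and lists were chosen with earlier results of these data known. Depth limits the genes with few counts, *Psma8* in labelled knockout 1, *Psmb8* in WT 2, *Psmb11* and *Psme2b*, and counts cover counting error only.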

Additional observations from a re-analysis of the deposited data

Results flagged for a closer look

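For 6 of 47 proteasome genes tested in both tables (12.8%, against 18.3% of all 12378 genes tested in both) the TMM-scaled value of every day 7 knockout sample lay on one side of the controls and that of every adult labelled knockout sample on the other side of the WT samples, and the difference between the tables was not tested. Another 10 (21.3%, against 24.6% of all genes) lay on the same side in both. *Psma1* had a log2 fold change of 1.03 in adult testis and -0.07 at day 7. *Psmc2* had -2.10 in adults and 0.09 at day 7. *Psmc6* had 0.36 in adults and -0.24 at day 7. *Psmd2* had -1.07 in adults, a call lost with total counts (-0.20, adjusted p = 0.451), and 0.06 at day 7. *Psmd5* had 1.86 in adults and -0.12 at day 7. *Psmf1* had -4.25 in adults and 0.08 at day 7. None of the day 7 values passed edgeR's test, and tissue and age differ between the tables together.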

How the results depend on the processing

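Of 1315 values recomputed under alternatives, 1136 kept their direction and side of the threshold or stayed within the replicate spread, 102 moved, 53 reversed, 18 became called and 6 lost their call. The 1315 include shares within pairs and levels relative to the core median. Their exact permutation p cannot fall under 0.05 with so few samples, so they could only keep or reverse their direction. Counts by direction moved with scaling in adults, while 23 of the 37 calls held their direction under every scaling, in DESeq2 and in limma at a pseudocount of 0.1. The share of all called genes that held in this way was not computed. Of adult members, 34 were higher and 8 lower with total counts, 36 and 8 with limma at a pseudocount of 0.1, 35 and 8 at 1, and 16 passed at the study thresholds, 8 higher and 8 lower. Of all genes, 84.1% passed in either direction with total counts, 84.2% and 84.8% with limma at 0.1 and 1, and 46.7% at the study thresholds. The core median of 0.18 became 1.05, -0.0163 (median-ratio), -0.0161 (DESeq2), 1.07 and 1.06 (limma). With total counts, limma at 0.1 and limma at 1, adult *Psmb5* became 0.82, 0.84 and 0.83, *Psmb6* 0.0196, 0.0231 and 0.023, and *Psmb7* 0.60, 0.53 and 0.53. Adult *Rnf20* became -0.0753 with median-ratio scaling and with DESeq2 and 0.97 with total counts (adjusted p = 0.0168). At day 7 *Psma8* became -0.0027 with total counts, *Psma7* -0.0045, -0.0022 and -0.0022, and *Psmb7* -0.0185, -0.0126 and -0.0125 with total counts and both limma fits. With the core mean in place of the median, *Psmb5* relative to it became 0.0035 at day 7 and 0.098 in adults; the cause was not tested.

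Leaving out each sample in turn gave the following lowest and highest values; fewer samples were fitted and no other cause was tested. At day 7 members called ran from 0 to 11, higher from 0 to 7, lower from 0 to 8, and the core median from -0.0738 to 0.0671. Day 7 log2 fold changes ran from -0.22 to 0.35 (*Psma8*), -0.0253 to 1.48 (*Psmb8*), -0.0831 to 0.0671 (*Psmb5*), -0.72 to 1.20 (*Psmb9*), -0.0222 to 0.0726 (*Psmb7*) and -0.0207 to 0.15 (*Psme4*). Day 7 share differences in percentage points ran from -0.0813 to 0.0841 (*Psma8*), -0.097 to 3.10 (*Psmb8*) and -0.284 to 1.05 (*Psmb9*), and the SD difference from -0.0126 to 0.0191. Day 7 levels relative to the core median ran from -0.23 to 0.35 (*Psma8*), -0.060 to 0.13 (*Psma7*), -0.0920 to 1.57 (*Psmb8*), -0.0722 to 0.0382 (*Psmb5*), -0.78 to 1.25 (*Psmb9*), -0.0501 to 0.0962 (*Psmb7*), -0.15 to 0.0362 (*Psme3*), -0.12 to 0.24 (*Psme4*) and -0.0074 to 0.16 (*Psmf1*). In adults members higher ran from 14 (without WT 3) to 26 (without labelled knockout 1). Of all genes, 74.3% and 86.2% passed in either direction in these fits. The adult core median ran from 0.0625 (without WT 3) to 0.65 (without labelled knockout 1), *Psmb5* from -0.29 to 0.34, *Psmb7* from -0.40 to 0.16, *Rnf20* from -0.0595 to 0.59, and *Psmb5* relative to the core median from -0.30 to 0.0364.

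Same-numbered samples did not deviate together (correlations of 0.03 at day 7 and of 0.01, 0.01 and 0.03 in adults), so the numbers do not pair them. With a replicate block 29 adult members (and 76.7% of all genes) passed, 17 higher and 12 lower, with a core median of 0.18; at day 7 0 passed, with a core median of -0.0027.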
